A study of Homo sapiens with 5 samples.

Results

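Promoters are usually rich in G and C, and a minority of those marked by acetylation of histone H3 at lysine 27 (H3K27ac) in HCT116 cells lay in sequence of low GC content. A peak was counted as a promoter peak when its center lay within 1 kb of the start of a protein-coding transcript, and as low in GC when G and C made up less than 50% of the bases within 500 bp of the center. Peaks between divergent starts of a pair of genes were left out. This gave 551 peaks at 521 genes, which were 2.74% of the 20087 peaks in all and 5.74% of the promoter peaks that were not divergent. The other 9053 promoter peaks, with a GC content of 50% or more, served for comparison, as did 5272 distal peaks with a GC content below 50%. The 1242 divergent promoter peaks, 41 of them low in GC, were not used.

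HCT116 cells were derived from a human colorectal carcinoma. The derivative used here, HCT116 CMV-osTIR1 RAD21-mAC, is a single engineered line in which RAD21 is tagged with an auxin-inducible degron and the plant receptor osTIR1 is expressed, and the sample labels mention no auxin. All cells were kept in 0.1% DMSO for 6 h. In the IFN-β group, 2 libraries followed 1 h with 1000 unit/ml IFN-β. In the control group, 2 libraries came from cells that were not treated further, and 1 input library was also made. The labels place the control at 0 min, so the groups may also differ by 1 h of culture, and this cannot be told apart from IFN-β. The authors' table gives, for each peak and group, the log2 of its mean normalized reads, with no value per library. The values below therefore carry no SD between replicates and no test, and the depth of each library is not in the table. The signal itself gives some guide to precision, since a log2 signal of 5 stands for 32 normalized reads. Peaks with a mean log2 signal of at least 5 are called well covered below. Most peaks were of equal width, with 520 of the 551 low-GC promoter peaks 1000 bp wide, so that signals per peak could be set side by side.

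Mammalian promoters fall broadly into those that overlap CpG islands, where the CpG dinucleotide has been kept, and those in which most CpGs have been lost. CpG island promoters often serve widely expressed genes and tend to start transcription over a broad region. CpG-poor promoters more often belong to genes used in particular cell types or conditions, and a TATA box just before the start is more common among them. H3K27ac is laid down by the acetyltransferases p300 and CBP on nucleosomes beside active promoters and enhancers. Type I interferon acts through receptor-bound kinases and transcription factors that bind interferon-stimulated response elements (ISREs) in promoters.

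The sequences that lie just before the start show how different low-GC promoters can be. Each is the 200 bases before the nearest transcript start, written 5′ to 3′ on the strand of the gene and read from the GRCh38 genome. IFIT1, IFI6, SAMD9 and SP110 are shown because their peaks had the highest differences between IFN-β and control among listed interferon-stimulated genes. H2AC4 is shown for its TATA box, COX20 for the highest control signal, and MEF2C for a difference near the lowest among well-covered peaks. Capitals mark matches to the ISRE core, which is TTTC and TTTC separated by 2 bases of any kind or its reverse complement, and the TATA box TATAAA.
IFIT1: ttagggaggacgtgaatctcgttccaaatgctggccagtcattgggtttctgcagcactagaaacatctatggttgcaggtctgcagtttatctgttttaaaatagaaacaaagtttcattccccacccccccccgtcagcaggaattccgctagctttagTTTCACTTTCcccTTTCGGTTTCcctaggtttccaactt
IFI6: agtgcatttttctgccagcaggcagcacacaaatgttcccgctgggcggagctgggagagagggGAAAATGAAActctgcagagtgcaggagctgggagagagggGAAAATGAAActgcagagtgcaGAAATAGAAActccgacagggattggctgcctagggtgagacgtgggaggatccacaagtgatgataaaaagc
SAMD9: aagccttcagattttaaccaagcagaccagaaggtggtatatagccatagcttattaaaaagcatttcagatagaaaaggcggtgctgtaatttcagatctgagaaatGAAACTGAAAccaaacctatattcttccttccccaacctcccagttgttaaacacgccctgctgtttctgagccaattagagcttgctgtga
SP110: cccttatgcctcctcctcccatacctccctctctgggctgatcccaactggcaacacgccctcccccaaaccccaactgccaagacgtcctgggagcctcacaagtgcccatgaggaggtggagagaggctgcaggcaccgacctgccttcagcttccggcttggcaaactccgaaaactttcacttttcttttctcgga
H2AC4: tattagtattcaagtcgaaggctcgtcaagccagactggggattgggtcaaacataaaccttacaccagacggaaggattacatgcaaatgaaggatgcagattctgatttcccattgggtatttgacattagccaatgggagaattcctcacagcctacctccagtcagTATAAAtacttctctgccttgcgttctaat
COX20: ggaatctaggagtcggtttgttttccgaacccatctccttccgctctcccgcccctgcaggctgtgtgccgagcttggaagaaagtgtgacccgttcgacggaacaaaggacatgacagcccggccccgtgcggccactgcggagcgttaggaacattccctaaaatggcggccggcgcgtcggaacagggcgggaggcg
MEF2C: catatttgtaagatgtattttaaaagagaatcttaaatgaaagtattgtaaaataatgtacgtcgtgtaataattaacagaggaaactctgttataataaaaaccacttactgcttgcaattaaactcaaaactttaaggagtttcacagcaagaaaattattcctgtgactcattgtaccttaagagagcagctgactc

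The stretch for IFIT1 is chr10:89392346-89392545 on the plus strand, in an intron of an overlapping protein-coding gene. It holds an ISRE core at 39 to 30 bp and another at 26 to 17 bp before the start, in sequence with a GC content of 46.0%. The IFI6 stretch, chr1:27672213-27672412 on the minus strand, lies in an intron of a noncoding gene. It has ISRE cores that begin 136, 95 and 73 bp before the start, and the first 2 of these have the same letters. For SAMD9 the stretch is chr7:93118024-93118223 on the minus strand, outside any annotated gene, with a core at 92 to 83 bp before the start and a GC content of 41.0%. SP110, at chr2:230220015-230220214 on the minus strand in an intron, has no core in the stretch printed, while 1 lies elsewhere within 500 bp of its peak center. The H2AC4 stretch, chr6:26033619-26033818 on the minus strand outside any gene, has its TATA box at 30 to 25 bp before the start. COX20, at chr1:244835416-244835615 on the plus strand outside any gene, has 62.5% GC just before its start although its peak was low in GC. MEF2C, at chr5:88785543-88785742 on the minus strand in an intron, has 30% GC. A match describes the letters and does not show that a factor was bound.

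COX20, with 70.2% GC over 250 bp either side of its start, was not typical of the set. Across low-GC promoters this measure had a median of 51.0% and quartiles of 44.4% and 55.8%. GC content at the transcript start itself was below 50% over 250 bp either side in 248 of the 551 peaks, or 45%. The mean GC content of low-GC promoters was 44.5% in the 50 bp bin centered 325 bp before the start, 54.0% in the last bin before it and 45.7% in the bin centered 425 bp after it. Other promoters had 59.6%, 71.5% and 63.9% in the same bins. The low-GC promoters thus also had a maximum of GC at the start, on a lower base. They lay in poorer surroundings too, with a median GC content of 41.01% over 100 kb around the peak, against 45.34% for other promoters and 41.62% for distal low-GC peaks.

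**Figure D1:**
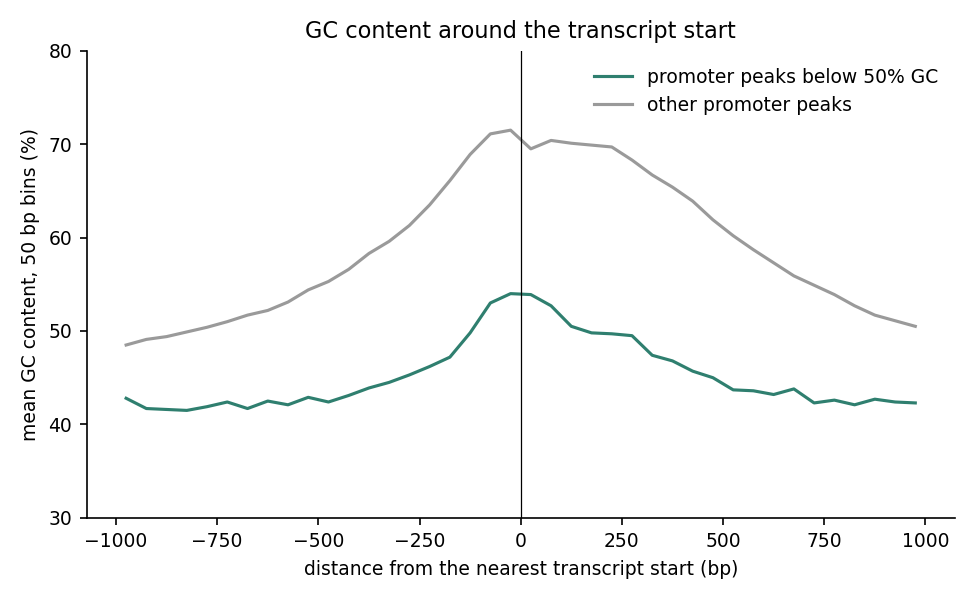
Mean GC content (%, y axis) in 50 bp bins by distance from the nearest transcript start (bp, x axis; negative values lie before it) for the 551 promoter peaks below 50% GC and the 9053 other promoter peaks. Both lines have their maximum near the start, at 54.0% and 71.5% in the last bin before it.

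Within the set, GC content ranged from 26.5% to 49.9%. The lowest belonged to PRKACB, a catalytic subunit of the cyclic AMP-dependent kinase, with a control log2 signal of 5.07 and an IFN-β log2 signal of 4.27. KLRC3, a receptor of natural killer cells, followed at 27.7% GC with 3.41 and 2.59. SLC7A11, the cystine and glutamate exchanger, had 29.1% GC and a much higher signal, 6.53 in control and 5.83 with IFN-β. OXR1, an oxidative stress resistance gene, had 30.2% GC, 3.78 in control and 0.97 with IFN-β. The latter stands for 1.96 normalized reads. PDHX, a component of the pyruvate dehydrogenase complex, had 31% GC with 5.19 and 4.54. At the other end, COX20, NDUFB4, COPZ1, SENP7 and BCAS2 lay just inside the threshold at 49.9% GC, with control log2 signals of 7.63, 5.76, 3.96, 5.53 and 5.20 and differences of -0.88, -1.13, -0.64, -0.60 and -0.66. NBL1, RIGI, GET1 and GTSF1 lay just outside at 50%, with control log2 signals of 2.70, 4.87, 3.80 and 6.79 and differences of -1.51, 1.08, -1.01 and -0.65. RIGI, which encodes a sensor of viral RNA, thus fell outside the set by the threshold alone.

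H3K27ac was lower at low-GC promoters than at other promoters in both groups. The median control log2 signal was 4.85 (quartiles 3.85 and 5.69), or 28.8 normalized reads, against 5.53 (4.72 and 6.19), or 46.2 reads, at other promoters. In the IFN-β group the medians were 4.28 (3.39 and 5.00) and 4.77 (4.01 and 5.42), or 19.4 and 27.3 reads. The ratio of other to low-GC promoters was thus 1.6 in control and 1.4 with IFN-β. Of the low-GC promoters, 395 (71.7%) lay below the median of other promoters in control. They were above distal low-GC peaks, whose median control log2 signal was 4.31. The quartile ranges of low-GC and other promoters overlapped widely, and 204 low-GC promoters (37.0%) were well covered against 57.8% of other promoters. At the bottom, 7 low-GC promoters were at the lowest value the table gives in both groups, -0.17 in control and -0.59 with IFN-β.

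Signal did not follow GC content evenly within the set. The median control log2 signal was 4.95 in the 31 peaks below 35% GC, 4.63 in the 72 peaks from 35% to 40%, 4.64 in the 130 peaks from 40% to 45% and 5.00 in the 318 peaks from 45% to 50%. It was 5.12 at promoters from 50% to 55% and 5.75 at those of 75% or more. Across the 551 peaks Spearman's rho between GC content and control signal was 0.11, while that between CpG content and control signal was 0.24. These correlations describe peaks of the same libraries and were not tested.

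The IFN-β group had lower values than the control group at most peaks of the table, with a median log2 difference (IFN-β minus control) of -0.69 over all 20087 peaks. Since the zero of this scale depends on the authors' normalization for library size, differences are read here beside that median. The median difference at low-GC promoters was -0.59 (quartiles -0.81 and -0.33). At other promoters it was -0.77 (-0.95 and -0.57), and at distal low-GC peaks -0.51. Low-GC promoters were therefore 0.18 above other promoters and 0.08 below distal low-GC peaks on the log2 scale. The difference exceeded the median of other promoters in 390 low-GC promoters (70.8%). The range ran from -3.02 at ASB9 to 2.17 at TRIM34, and both had few reads in at least 1 group. ASB9 had log2 signals of 3.03 and 0.01, and TRIM34, a TRIM family gene beside TRIM5, had 1.29 and 3.46. These genes were named after their values were seen.

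Weak peaks vary more and low-GC promoters were weaker, so the difference was also compared within bins of the log2 signal over all libraries. The median difference was -0.52 against -0.72 at other promoters for such signals from 3 to 4 (130 and 1074 peaks). It was -0.56 against -0.73 from 4 to 5, -0.64 against -0.76 from 5 to 6 and -0.67 against -0.82 from 6 to 7, where 49 low-GC promoters remained. Low-GC promoters had the higher median in each of these bins. The interquartile range of their differences narrowed from 0.63 for signals from 3 to 4 to 0.25 for signals from 6 to 7. Differences were thus more scattered at weak peaks.

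**Figure D2:**
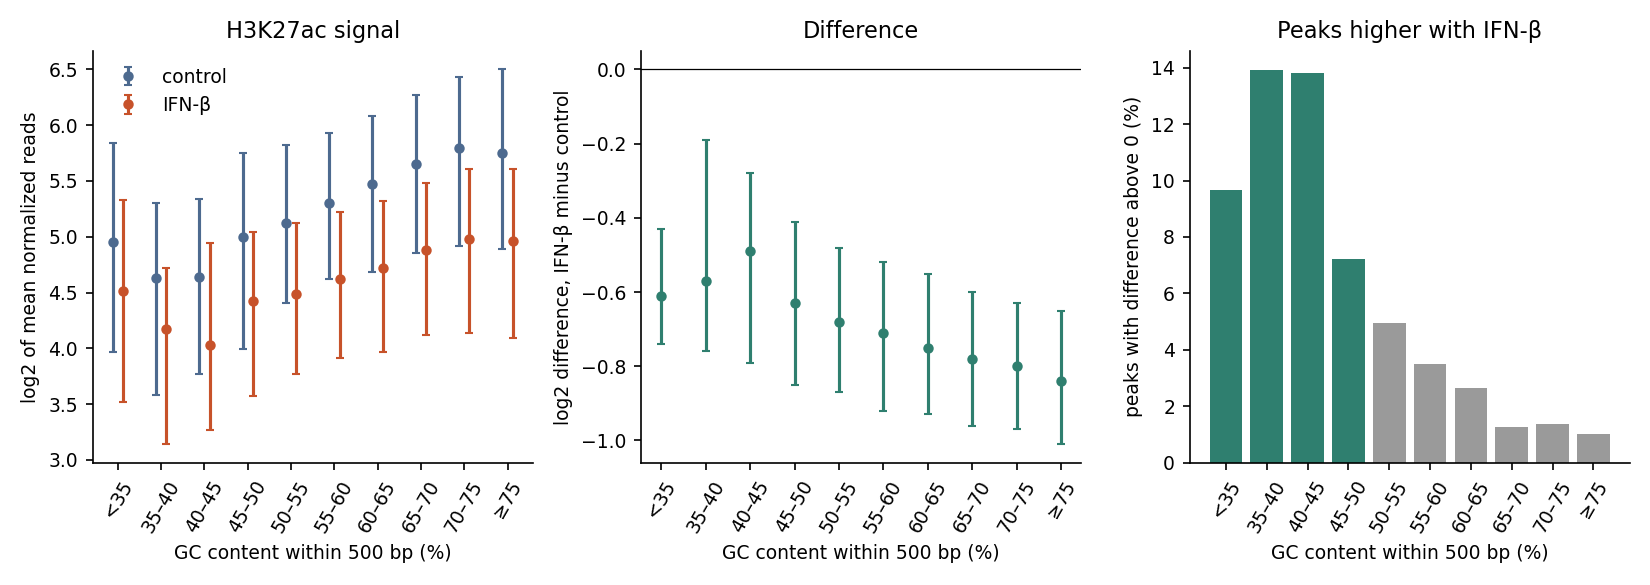
Promoter peaks binned by GC content within 500 bp of the center (%, x axes). Left, log2 of mean normalized reads in control and IFN-β; middle, log2 difference (IFN-β minus control), with points for medians and bars for quartiles; right, share of peaks with a difference above 0 (%), low-GC bins in green. The share was 13.9% from 35% to 40% GC and 1.04% at 75% or more.

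Signal was higher with IFN-β than in control (difference above 0) at 54 low-GC promoters, or 9.8%, beside 5.93% of all peaks, 2.28% of other promoters and 12.9% of distal low-GC peaks. Among well-covered peaks the shares were 3.43% of low-GC promoters (7 of 204), 0.573% of other promoters and 1.37% of all peaks. Well-covered distal low-GC peaks had a higher share, 4.69%. A difference below -1 was found at 62 low-GC promoters (11.3%), beside 17.4% of all peaks, 18.8% of other promoters and 13.8% of distal low-GC peaks. Measured from the median of all peaks, 18 low-GC promoters (3.27%) were more than 1 higher. The share was 2.44% of all peaks and 5.44% of distal low-GC peaks. In the other direction, 11 low-GC promoters (2.0%) were more than 1 lower, beside 1.37% of all peaks and 1.56% of distal low-GC peaks. Of these, 1 of the 18 and 0 of the 11 were well covered. Over all peaks, 43 of the 491 more than 1 higher and 1 of the 276 more than 1 lower were well covered. The 54 promoters above 0 had a median log2 signal over all libraries of 3.86, against 4.58 for the whole set. Much of the upper tail thus sat at weak peaks, where single reads weigh most. The same held for the table as a whole, where 119 of the 1192 peaks above 0 were well covered.

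Low GC content and loss of CpG are related but separate features. The ratio of observed to expected CpG had a median of 0.49 at low-GC promoters, 0.79 at other promoters and 0.22 at distal low-GC peaks. It was under 0.4 in 220 low-GC promoters (39.9%), from 0.4 to 0.6 in 133 (24.1%) and at least 0.6 in 198 (35.9%). In the CpG-poor class the median control log2 signal was 4.56 and the median difference -0.50, and 37 peaks (16.8%) had a difference above 0, beside 5.93% of all peaks. The 37 include all 7 low-GC promoters above 0 at listed interferon-stimulated genes. The middle class had a control median of 4.53, a median difference of -0.58, and 8 peaks (6.02%) above 0. The CpG-rich class had a control median of 5.30, a median difference of -0.64, and 9 peaks (4.55%) above 0. CpG-poor members were also farther from the usual start of their gene: 38.2% lay within 1 kb of the start of the Ensembl canonical transcript, against 90.4% of CpG-rich members. CpG-poor peaks belonged to longer genes, with a median length of 74951 bp against 35827 bp. Other promoters with a ratio under 0.4 were few, 325 or 3.59%, and had a control median of 4.70, a median difference of -0.61 and 8.92% above 0. Those with a ratio of at least 0.6 had 1.85% above 0.

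A share of low-GC promoters were thus internal or alternative starts. Of the 551 peaks, 351 (63.7%) lay within 1 kb of a canonical start, compared with 91.1% of other promoter peaks. The remaining 200 had a median gene length of 115902 bp, a CpG ratio of 0.28 and a control log2 signal of 4.57, against 35972 bp, 0.61 and 4.97 near a canonical start. Their median differences were -0.56 and -0.61. Introns of protein-coding genes held the centers of 273 low-GC promoter peaks (49.5%), against 34.3% of other promoter peaks. UTRs held 87 (15.8% against 27.7%), coding exons 32 (5.81% against 14.6%), and 93 (16.9%) lay outside any gene. Another peak center lay within 3 kb of 128 low-GC promoters (23.2%), against 9.2% of other promoters.

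Peaks of the same gene were also set side by side. For 168 low-GC promoters (30.5%) the same gene had another promoter peak with a GC content of 50% or more. The nearest such peak was taken, at a median distance of 17453 bp. Distances ran from 1001 bp, as at VPS54, to 522302 bp at ZBTB20. Whether the closest pairs are flanks of the same promoter was not tested, and genes such as ZBTB20 and MEF2C entered repeatedly with the same partner. The low-GC peak had the lower control signal in 125 of the 168 pairs (74.4%), with medians of 4.58 and 5.82. It had the higher difference in 108 (64.3%), with medians of -0.58 and -0.77. By chromosome, the low-GC share of promoter peaks was highest on chromosome 6, which holds the main histone cluster, at 10.5% (53 peaks), and lowest on the gene-dense chromosome 19, at 2.07% (15 peaks).

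The strongest low-GC promoters included genes of quite different roles. COX20, which helps to assemble cytochrome c oxidase, had the highest control log2 signal, 7.63, and 6.75 with IFN-β. Its peak center lay 890 bp before the start. RNF43, a ubiquitin ligase that removes Wnt receptors from the cell surface, had 7.49 and 6.80 at its canonical start in sequence of 37.9% GC. The gene also had low-GC peaks at 6.08 and 5.70, and at 5.47 and 4.56. RCC1, the exchange factor of the GTPase RAN, had 7.45 and 6.83, and LAMA2, a laminin chain, had 7.35 and 6.86 at an internal start. EREG, which encodes a ligand of the EGF receptor, had 7.32 and 6.63, ANKRD40 7.26 and 6.82, and the homeobox gene HOXB6 7.23 and 6.52. DDX60L, H2AC4 and H2BC11 completed the 10 highest and are described below with their groups.

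Consensus motifs, searched on both strands within 500 bp of each center, followed base composition. The AT-rich motifs were more common at low-GC promoters than at other promoters: TATAAA in 56.1% against 12.6%, the homeobox core TAATTA in 29.2% against 6.02%, and the GATA motif AGATAA in 49.2% against 14.9%. The GC box GGGCGG, bound by SP and KLF factors, was found in 40.8% against 95.1%, and the ETS motif CCGGAAG in 18.5% against 30%. CCAAT was found in 76.0% against 55.9%. AP-1 sites (TGANTCA) were found in 33.8% of low-GC promoters, 12.6% of other promoters and 66.8% of distal low-GC peaks. Over all peaks these shares were 28.5% for TATAAA, 14.9% for TAATTA, 27.5% for AGATAA, 67.3% for GGGCGG, 20.9% for CCGGAAG, 61.8% for CCAAT and 33.4% for TGANTCA. The TCF/LEF motif CTTTGAT was found in 13.1% of low-GC promoters, 4.6% of other promoters and 8.64% of all peaks, and the E-box CACGTG in 14.3%, 21.4% and 17.9%. The CRE TGACGTCA (3.27%, 4.01% and 2.79%) and an NF-κB consensus (4.9%, 6.52% and 5.83%) were rare in each set. Windows of low GC content hold AT-rich letters more often by composition alone, and the part of composition in these shares was not tested.

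CpG content split the set further. In the CpG-poor class 56.8% had an AP-1 site, 6.82% an ETS motif and 15% a GC box. In the CpG-rich class the shares were 14.1%, 33.8% and 64.1%. The YY1 motif AAGATGG was found in 16.4% and 28.3% of these classes, against 16.4% of all peaks. The ETS motif and the GC box themselves contain a CpG, so the split partly fixes their shares. The AT-rich motifs remained common in the CpG-rich class, with TATAAA in 52.5%, AGATAA in 40.9%, TAATTA in 23.2% and the ISRE core in 18.2%. In the CpG-poor class these shares were 60.5%, 55.5%, 36.4% and 25%. For these 4 motifs the CpG-rich class was nearer to distal low-GC peaks (62.7%, 52.8%, 34.4% and 19.6%) than to other promoters (12.6%, 14.9%, 6.02% and 7.83%). For AP-1 it was nearer to other promoters. Members with an AP-1 site had a median difference of -0.52 and 14% above 0, against -0.60 and 7.67% without. Over all peaks the shares above 0 were 9.51% with and 4.14% without the site, and at distal low-GC peaks 13.2% and 12.1%.

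**Figure D3:**
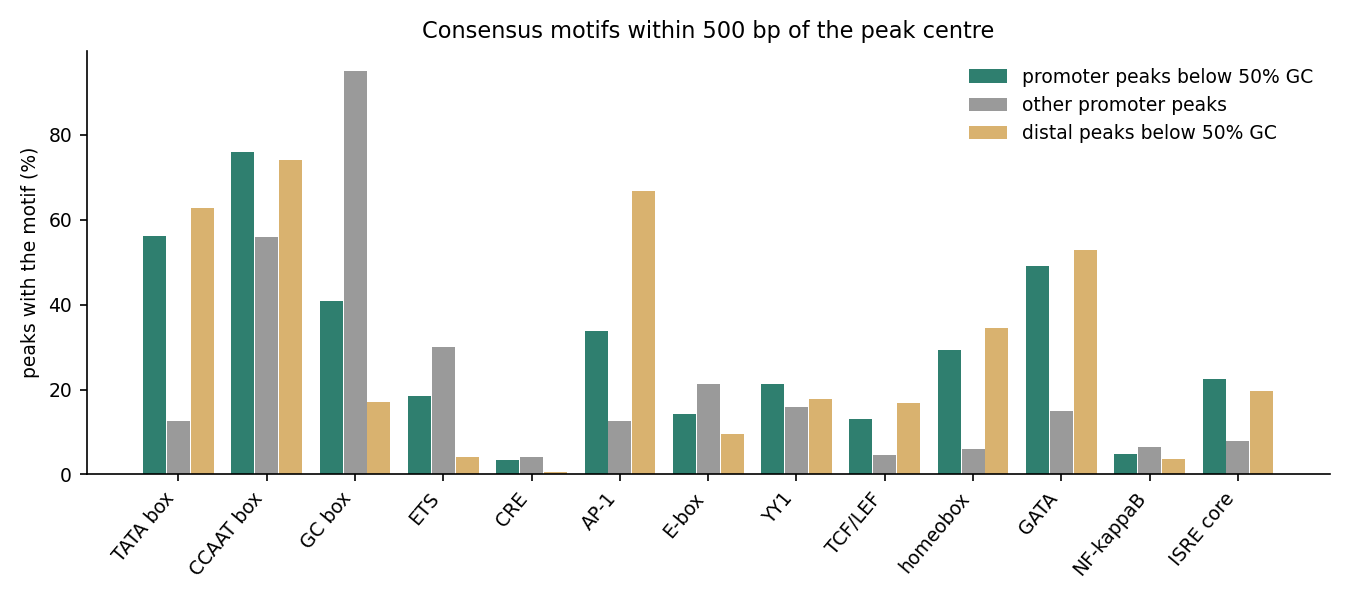
Share of peaks (%, y axis) that hold each consensus motif on either strand within 500 bp of the center (x axis), for the 551 low-GC promoter peaks, the 9053 other promoter peaks and the 5272 distal low-GC peaks. The GC box was in 95.1% of other promoters and 40.8% of low-GC promoters, and AP-1 in 33.8% of low-GC promoters and 66.8% of distal low-GC peaks.

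A TATA box in its usual place is a narrower feature. TATAAA lay 40 to 15 bp before the nearest start in 12 low-GC promoters (2.18%) and 79 other promoters (0.873%). Replication-dependent histone genes made up 7 of the 12, and the others were EREG, H2AX, NFKBIZ, EGFR and KRTAP2-3. The 12 had a median control log2 signal of 6.18, against 4.81 for members without such a box. At other promoters these medians were 5.72 and 5.53. Low-GC promoters of replication-dependent histone genes, with or without a box, had 6.47, and their part in this contrast was not tested. EGFR, the receptor of EGF family ligands, had 5.13 in control and 3.52 with IFN-β at an internal start, a difference of -1.61. Its nearest promoter peak of higher GC content, 89932 bp away, had 6.02 and 5.56, a difference of -0.46. NFKBIZ, an atypical member of the IκB family, had 5.15 and 5.16 at a peak with no canonical start within 1 kb. The nearest promoter peak of higher GC content at NFKBIZ had 5.83 and 5.06.

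Replication-dependent histone genes, which supply histones for S phase, were the group with the highest share in the set. Of their 22 promoter peaks, 11 were low in GC (50%). These had a median control log2 signal of 6.47, above the 5.97 of the other 11, with a range from 3.17 at H2BC3 to 7.16 at H2AC4. H2BC11 had 7.05 and 6.35, H4C2 had 6.87 and 5.92, and H2AC17 had 6.84 and 5.85 in control and IFN-β. All 11 had differences between -0.99 and -0.49, with a median of -0.70, beside -0.69 for the other 11 and -0.69 for all peaks. None of either 11 was above 0, beside 5.93% of all peaks, a share too low for 11 peaks to differ from. Histone genes are short and lie in clusters with closely related copies, and the part of neighboring or related copies in these signals was not tested.

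Listed interferon-stimulated genes had 73 promoter peaks, of which 13 at 12 genes were low in GC (17.8%, against 5.74% of promoter peaks as a whole). Their median difference was 0.05, and 7 of the 13 (53.8%) were above 0, beside 5.93% of all peaks. The other 60 promoter peaks of the list had a median difference of 0.18, with 33 above 0 (55%). Low-GC members were weaker in control, with a median log2 signal of 4.55 against 5.19. An ISRE core lay within 500 bp of the center in 10 of the 13.

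IFI6, an antiviral protein of the endoplasmic reticulum, had the highest difference. Its peak at chr1:27671921-27672921 had log2 signals of 3.36 in control and 5.30 with IFN-β, or 10.3 and 39.4 normalized reads, a difference of 1.94. IFIT1, which binds viral RNA, had 4.06 and 5.65 at chr10:89391838-89392838, or 16.7 and 50.2 reads, a difference of 1.59. SP110, a nuclear body protein, had 3.66 and 5.06 at chr2:230219602-230220602, a difference of 1.40. SAMD9, a cytosolic restriction factor of poxviruses, had 3.69 and 4.86 at chr7:93117655-93118655, a difference of 1.17. These 4 stood apart from the other listed peaks, whose differences lay between -0.51 and 0.08.

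The IFIT genes lie in a cluster on chromosome 10 but did not have equal values. IFIT2 had 3.52 and 3.58 and IFIT3 had 5.14 and 5.19, with differences of 0.06 and 0.05, although both peaks held 2 ISRE cores. TRIM5, which binds retroviral capsids, had 4.86 and 4.94. DDX60L, a helicase gene, had the strongest peak of the list, 7.17 and 7.13, and 4 ISRE cores. CD274, which encodes an immune checkpoint ligand, had 2.98 and 2.88, or 7.89 and 7.36 reads. GBP3, a guanylate-binding GTPase, had 4.55 and 4.41, and the ubiquitin ligase gene TRIM38 had 5.18 and 4.97. SP140L had 5.31 and 5.07 near its canonical start and 5.40 and 4.89 at an internal start. All 13 lay above the median difference of -0.69 over all peaks.

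**Figure D4:**
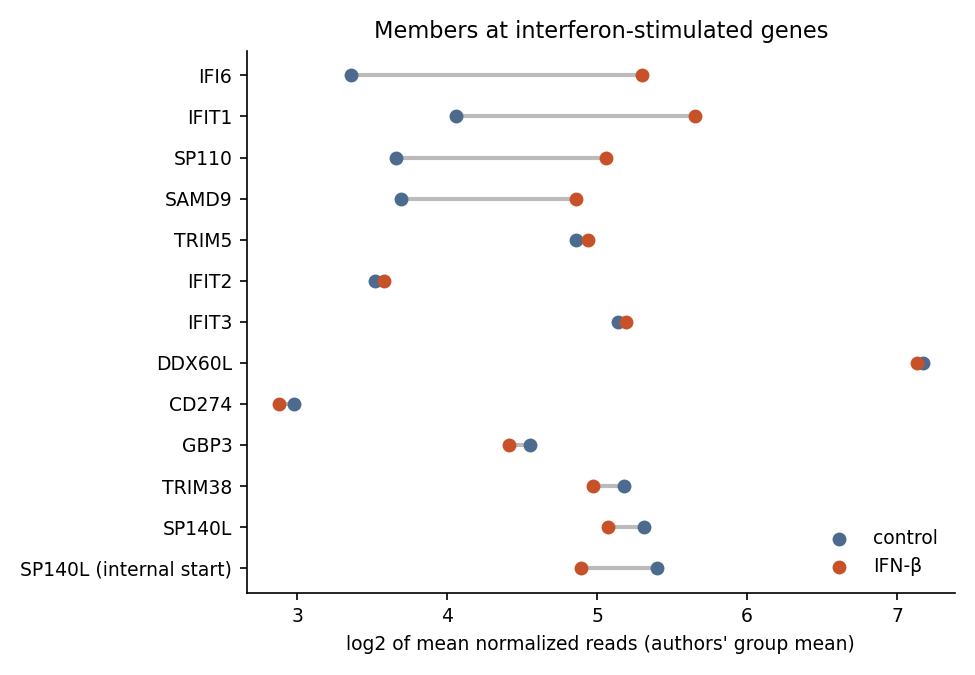
Log2 of mean normalized reads (x axis) in control and IFN-β for the 13 low-GC promoter peaks at listed interferon-stimulated genes, ordered by difference (y axis). IFI6, IFIT1, SP110 and SAMD9 lie more than 1 higher with IFN-β, and the other peaks lie between -0.51 and 0.08.

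Across the whole set, 124 low-GC promoters (22.5%) had the ISRE core, against 7.83% of other promoters, 19.6% of distal low-GC peaks and 11.6% of all peaks. The median difference was -0.60 in the 427 peaks without the core, -0.57 in the 96 peaks with 1 copy and -0.39 in the 28 peaks with at least 2. Shares above 0 were 7.73%, 15.6% and 21.4%. At other promoters the medians were -0.77, -0.71 and -0.58, and the shares 1.89%, 5.54% and 16.9%, beside 5.26%, 10.3% and 15.4% over all peaks. Without the listed genes, the median difference was -0.58 in the 114 low-GC promoters with the core and -0.60 in the 424 without it. The letters of the core are AT-rich, and the part of GC content in these values was not tested.

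Of the 54 low-GC promoters above 0, 47 were not at listed genes, but neither were 538 of all 551. The share above 0 was 8.74% of those 538, against 53.8% of the 13 at listed genes. The ISRE core was in 21 of the 54 (38.9%), beside 22.5% of all low-GC promoters. Besides IFIT1 and IFIT3, the well-covered peaks above 0 were 5. PHACTR4, a regulator of protein phosphatase and actin, had 5.52 and 5.71 at a peak with 2 ISRE cores, and RBMS2, an RNA-binding protein, had 5.12 and 5.23. DNMBP, a scaffold that activates CDC42, had 6.15 and 6.21. NFKBIZ and LAT2, an adaptor of immune receptors, each had a difference of 0.01. DDX47 (-0.01), ARL14EPL (-0.03) and DDX60L (-0.04) came next. After IFIT1, these differences were all within 0.2 of 0, and each was above the median of all peaks. Among PHACTR4, RBMS2, DNMBP, NFKBIZ and LAT2, only the RBMS2 peak had a canonical start within 1 kb. The nearest promoter peaks of higher GC content had differences of -1.3 at PHACTR4, -0.37 at LAT2 and -0.77 at NFKBIZ.

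**Figure D5:**
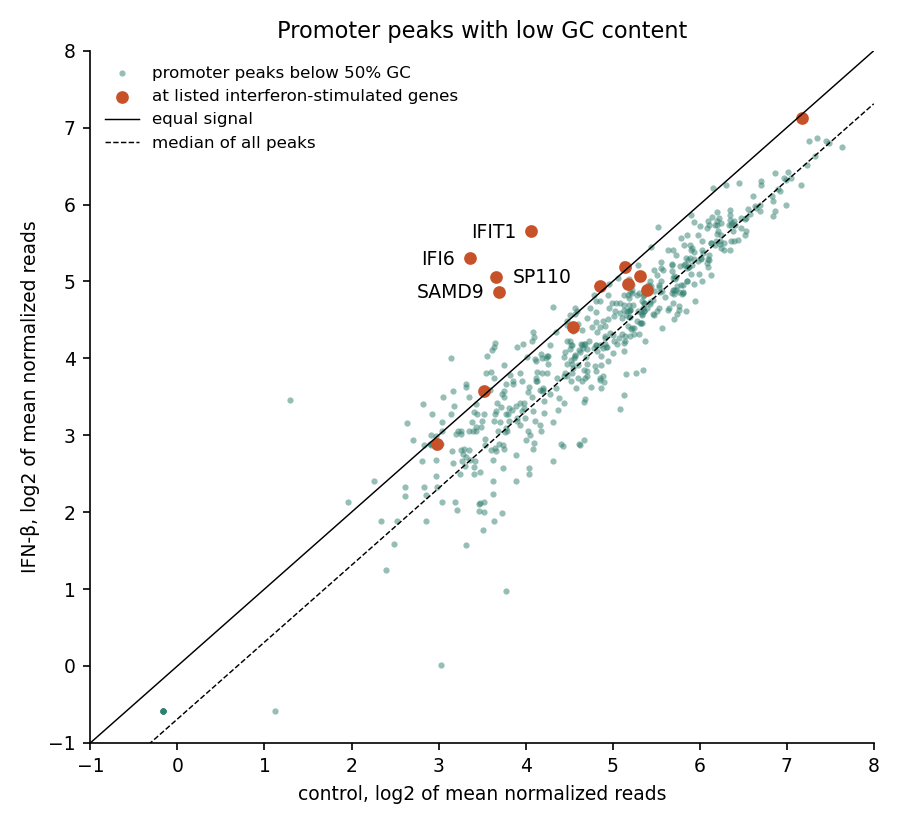
Log2 of mean normalized reads in control (x axis) and IFN-β (y axis) for the 551 low-GC promoter peaks, with those at listed interferon-stimulated genes in orange; lines mark equal signal and the median difference of all peaks (-0.69). Most peaks follow the lower line, with wider scatter at low signal, and IFI6, IFIT1, SP110 and SAMD9 lie above both lines.

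At the other end of the well-covered peaks, TRMT12, which modifies tRNA, had 5.84 in control and 4.62 with IFN-β, a difference of -1.22. The transcription factor gene MEF2C had 5.95 and 4.74 at an internal start, and GATAD2B, a subunit of the NuRD complex, had 5.71 and 4.51. OSTC, a subunit of the oligosaccharyltransferase, had 5.57 and 4.40. COX7B and NDUFB4, subunits of respiratory complexes, had 5.74 and 4.58, and 5.76 and 4.63. MTPAP, the mitochondrial poly(A) polymerase, had a difference of -1.08. TNRC6B, which acts in silencing by miRNAs, had -1.04, TBL1X, part of a corepressor complex, -1.03 and CCDC174 -1.01. Measured from the median of all peaks, these values were 0.53 to 0.32 lower, a smaller distance than that of IFIT1 on the upper side.

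Subunits of the respiratory chain had 6 low-GC promoters of 49 (12.2%), with a median control log2 signal of 5.71 and a median difference of -0.98, beside -0.78 for the other 43. The values were uneven. COX7B, NDUFB4 and NDUFA5, 3 of the 6, lay below -1 at -1.16, -1.13 and -1.12, beside 11.3% of low-GC promoters and 17.4% of all peaks below -1. UQCRB was at -0.84, and COX7A2 and NDUFS4 were at -0.45 and -0.41. Cytosolic ribosomal protein genes had 5 low-GC promoters of 65, with a control median of 5.74 and a median difference of -0.72. RPL41 had 6.83 and 6.11, and RPS27 had 6.35 and 5.41. Mitochondrial ribosomal protein genes had 3 of 50, with a median difference of -0.69, and MRPL48 among them had 6.69 and 6.00.

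Epithelial and intestinal genes, a list of 71 that bears on the labelled cell type, had 41 promoter peaks. Of these, 10 at 8 genes were low in GC (24.4%), with a control median of 5.31 and a median difference of -0.30, beside -0.70 for the other 31. Of these 10, 2 were above 0, beside 9.8% of low-GC promoters and 5.93% of all peaks. Both were weak peaks at KLF5, a transcription factor of intestinal crypts. They had 3.65 and 4.2 at a peak with no canonical start within 1 kb, and 3.17 and 3.58 near the canonical start. The nearest promoter peak of higher GC content at KLF5, 1003 bp from the latter, was stronger and had 5.62 and 4.94, a difference of -0.68. ANXA3, a calcium-dependent membrane protein, had 6.30 and 6.25, while EPCAM, the epithelial adhesion molecule, had 5.70 and 4.84. Annexin A2 (ANXA2) had 5.69 and 4.89 and EREG 7.32 and 6.63. Differences in the group ran from -0.86 to 0.55. The peaks given for ANXA3, EPCAM and ANXA2 had no canonical start within 1 kb. The nearest promoter peaks of higher GC content had 7.1 and 6.25 at EPCAM and 6.79 and 6.31 at ANXA2.

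In the remaining lists low-GC promoters were few in number, beside a share of 5.74% of promoter peaks as a whole. Shares were above this for splicing factor genes (9.76%), NF-κB targets (8.33%) and genes of ubiquitin and protein turnover (6.38%). They were below it for zinc finger, cell cycle and immediate early genes. Zinc finger genes of the ZNF and ZSCAN families had 14 of 314 (4.46%). Their control median was 4.08 against 5.26 for the others, and their median difference -0.60 against -0.83. ZNF608 had 5.27 and 3.81, and ZSCAN31 6.24 and 5.44. Splicing factor genes had 4 of 41, with a control median of 6.18 and a median difference of -0.66, led by PNISR at 6.4 and 5.79 and SNRPG at 6.35 and 5.87. Genes of ubiquitin and protein turnover had 3 of 47. Among these, the proteasome subunit gene PSMA3 had 5.85 and 5.6, and PSMC2 had 5.73 and 4.89. Cell cycle genes had 2 of 57 (3.51%), at the kinase inhibitor gene CDKN1A (4.26 and 3.93) and at E2F3 (3.29 and 2.82). NF-κB targets had 2 of 24, NFKBIZ and the apoptosis inhibitor gene BIRC3 (3.65 and 3.27). Immediate early genes had 0 of 36.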

How the data were processed

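H3K27ac ChIP-seq libraries (2 IFN-β, 2 control) and 1 input were grouped by the sample labels. The authors trimmed adapters with fastp, aligned reads to GRCh38 with Bowtie2, called peaks per library with MACS2 against the input, and merged and counted them with DiffBind. The deposited columns used here are log2 values of mean normalized reads per peak, 1 for all libraries and 1 per group. The fold, p-value and FDR columns hold the authors' comparison from DESeq2 and were not used. The processing notes list fastp 0.19.3 and bcl2fastq 2.17.

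All 39 sequence names in the table were found in the GRCh38 reference. Transcript starts came from GENCODE release 44, and 1 peak that ends beyond its sequence was kept. Peaks were named by the nearest protein-coding start. Scripts used Python 3.11.15, numpy 2.4.6, pandas 2.3.3, scipy 1.17.1, pysam 0.24.0, samtools 1.23.1 and matplotlib 3.10.9, and were tested on simulated data. The difference is the IFN-β minus the control log2 value. Named are the 10 peaks with the highest control signal, the 10 highest and the 10 lowest differences among well-covered peaks (mean log2 signal of at least 5), all listed interferon-stimulated genes, up to 4 per other list with the highest control signal, the 5 lowest in GC and 5 on each side of the threshold, of which 1 outside it is not reported here. Genes outside this rule (ASB9, TRIM34, EGFR, KRTAP2-3, H2AX, KLF5, H2BC3, NDUFA5, NDUFS4 and others given with their lists) were named after their values were seen.

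The gene lists and the set itself were chosen with earlier results of these data known, among them the relation of the difference to GC content over all peaks, so that relation is no independent support. With 1 value per group, no test was possible. Called means past the stated fold. The reference is not soft-masked, so repeat content was not analysed here. Alternatives changed the GC threshold, the window, the distance and kind of start, divergent promoters, peak width, coverage, peaks at the lowest value, and the listed genes.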

Additional observations from a re-analysis of the deposited data

How the results depend on the processing

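With 12 alternatives for each of 8 values (medians and shares), 74 values stayed within the 95% interval of the value reported. Intervals used order statistics for medians and Clopper-Pearson for shares, over peaks and not over libraries. Of the rest, 22 moved out of the interval and 0 changed direction. That count leaves out how shares compare with all peaks. With the start of the gene feature alone, 5.49% were above 0, under the 5.93% of all peaks. There 2.02% were more than 1 above the median, under the 2.44% of all peaks. The share more than 1 below fell under the 1.37% of all peaks in several alternatives, such as a GC threshold of 55% (1.2%). The median difference at low-GC promoters ran from -0.65 to -0.53, and it stayed 0.12 to 0.23 above that of other promoters. With a GC threshold of 45% (233 peaks), the median log2 signal was 4.65 in control and 4.15 with IFN-β, the median difference -0.53, the control median 0.87 lower than at other promoters (-0.87), and 13.3% were above 0. With a threshold of 55% (1335 peaks), the control median was 5.04, the median difference -0.65 (0.12 above other promoters), the control distance -0.52, and 6.97% were above 0. With the start of the gene feature alone (346 peaks), the medians were 5.07 and 4.46, the control distance -0.50, and 5.49% were above 0. Canonical starts alone, chosen after seeing the data, gave an IFN-β median of 4.46 (368 peaks). With well-covered peaks alone (204), the medians were 5.88 and 5.28, the difference -0.64, the control distance -0.19, and 3.43% were above 0. There 0.49% were more than 1 above the median of all peaks and 0% more than 1 below. This alternative selects on signal, which itself raises the medians. Starts of any transcript type and leaving out the listed genes were also chosen after seeing the data. No paired analysis was possible because the table has no column per library, and no library could be left out. Replicate spread is thus unknown here, and library depth, the scaling and 1 h of culture cannot be told apart from IFN-β. Values at weak peaks rest on few reads.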
